A study of Mus musculus with 17 samples.

Results

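The genes described here are 10 genes of the Notch pathway in the mouse brain: the receptors Notch1, Notch2, Notch3 and Notch4, the ligands Jag1 and Dll4, and the target genes Hes1, Hey1, Hey2 and Heyl. They were chosen by symbol, and all 10 were found among the 21640 gene symbols of the count table. Each was followed over 17 bulk RNA-seq libraries in 4 groups. The Ai47 aSMC group is 6 libraries of arteriolar smooth muscle cells (aSMCs) from adult SMACreER:Ai47 mice, given tamoxifen 1 month before. There, cerebral vessels were enriched, EGFP-positive cells were sorted, and cells carrying the endothelial protein CD31 or the immune protein CD45 were removed. The Ai14 aSMC group is 2 libraries of tdTomato-positive aSMCs from SMACreER:Ai14 mice. The astrocyte group is 3 libraries of tdTomato-positive cells from hGFAPCreER:Ai14 mice. The ages of the Ai14 reporter mice were not in the labels. The cortex group is 6 libraries of cortical homogenate labelled WT, and the study's text describes its cortex control as a portion of the dissociated cortices taken before sorting. SMACreER is driven by the smooth muscle actin promoter, so the sort takes cells in which that promoter had been active when tamoxifen was given, and a like limit holds for hGFAPCreER. For its sorted aSMCs and cortex the study's text counts as many mice as there are libraries in the Ai47 aSMC and cortex groups, although one of its legends names the aSMC reporter as Ai14. Nothing used here says that the Ai14 aSMC or the astrocyte libraries came from separate animals, so their own spread may be technical only. Comparisons that use them were fitted on all 17 libraries with a spread shared over the 4 groups. Their p-values therefore do not measure the spread between animals within these groups.

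Notch signalling passes between touching cells. A ligand of the Jagged or Delta-like family on one cell binds a Notch receptor on its neighbour, the receptor is cut by ADAM proteases and then by gamma-secretase, and the freed intracellular part joins the DNA-binding protein RBPJ and a Mastermind coactivator to switch on genes of the HES and HEY families. In arteries, Notch3 is the receptor best known for smooth muscle identity, and mutations in human NOTCH3 cause an inherited small vessel disease of the brain. Jag1 on endothelial and smooth muscle cells is a known ligand for it, and Dll4 and Notch4 are known mainly from endothelium.

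The libraries differed in depth and make-up. Total counts were 41499087 to 53643624 in Ai47 aSMC libraries, 14870507 and 14979228 in Ai14 aSMC libraries, 4537137 to 7390630 in astrocyte libraries and 5397905 to 7288036 in cortex libraries. Mitochondrial genes held 0.214% to 0.559%, 16.8% and 17.6%, 10.7% to 12.5%, and 35.7% to 72.9% of the counts of these groups in the same order. The 6 Ai47 aSMC columns shared identical non-zero counts at 404 genes of the 13491 with counts in every column, and the 6 cortex columns at 0 genes. P-values that rest on the Ai47 aSMC libraries take these columns as independent, which was not tested, so they may be too small. All 8 smooth muscle markers reached 1 CPM (counts scaled to library size) in both aSMC groups, with summed levels of 6063 to 7290 CPM in Ai47 aSMCs and 9405 and 10134 CPM in Ai14 aSMCs, against 40.4 to 161 CPM in cortex. Pericyte markers, of which 7 of 8 reached 1 CPM in both aSMC groups, summed to 2998 to 6054 CPM in Ai47 aSMCs and 7352 and 10453 CPM in Ai14 aSMCs, against 264 to 752 CPM in cortex. Rgs5 made up most of these sums (mean 3495 CPM in Ai47 aSMCs, 8185 CPM in Ai14 aSMCs and 350 CPM in cortex). Of the 7 tested in Ai47 aSMCs against cortex, 4 were higher and 2, Abcc9 and Anpep, were lower. In Ai14 aSMCs against cortex, 4 of 8 were higher and 0 lower. All 10 astrocyte markers were above 1 CPM in astrocytes, but their sum was 1276 to 1945 CPM in astrocytes, against 3438 to 18832 CPM in cortex. Of these 10 markers (median log2 fold change -0.51 over all 10), Gja1 and Sox9 were higher and Slc1a2 and Slc4a4 lower in astrocytes than in cortex. The other 6 did not pass, Gfap and Aqp4 among them, so the labelled enrichment was not shown by the list as a whole. Library sizes for CPM were scaled by trimmed mean of M values (TMM) over the 17 libraries. In bulk samples, fewer cells of a type and less RNA per cell cannot be told apart.

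Of the 10 genes, 7 had a promoter in the RefSeq table (GRCm38.p6), which holds 250 bases before and 50 bases after the annotated start site. The Hey2 window is printed because it holds the binding core of RBPJ, TGGGAA on either strand, set in capitals, and the Notch2, Notch3 and Jag1 windows because these genes carry the differences between the aSMC groups described below. The Hey2 window is chr10:30842734-30843033 (minus strand), the Notch2 window chr3:98013288-98013587 (plus strand), the Notch3 window chr17:32166841-32167140 (minus strand) and the Jag1 window chr2:137116471-137116770 (minus strand).
Hey2: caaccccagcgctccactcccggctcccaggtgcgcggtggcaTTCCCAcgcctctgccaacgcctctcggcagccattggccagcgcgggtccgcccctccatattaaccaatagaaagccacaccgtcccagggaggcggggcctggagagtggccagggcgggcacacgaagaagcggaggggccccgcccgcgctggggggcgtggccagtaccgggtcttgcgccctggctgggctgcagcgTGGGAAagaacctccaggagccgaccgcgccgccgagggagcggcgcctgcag
Notch2: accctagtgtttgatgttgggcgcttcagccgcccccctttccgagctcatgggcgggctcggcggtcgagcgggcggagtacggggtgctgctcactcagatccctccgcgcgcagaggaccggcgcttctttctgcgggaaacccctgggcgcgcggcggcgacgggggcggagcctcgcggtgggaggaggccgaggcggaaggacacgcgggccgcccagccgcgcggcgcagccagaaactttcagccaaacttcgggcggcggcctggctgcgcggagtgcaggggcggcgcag
Notch3: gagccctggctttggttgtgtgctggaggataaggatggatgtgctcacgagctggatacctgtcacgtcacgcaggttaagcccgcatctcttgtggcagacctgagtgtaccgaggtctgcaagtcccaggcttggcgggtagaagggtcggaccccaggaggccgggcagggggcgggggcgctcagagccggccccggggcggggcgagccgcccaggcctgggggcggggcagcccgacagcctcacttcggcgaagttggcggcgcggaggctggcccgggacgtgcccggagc
Jag1: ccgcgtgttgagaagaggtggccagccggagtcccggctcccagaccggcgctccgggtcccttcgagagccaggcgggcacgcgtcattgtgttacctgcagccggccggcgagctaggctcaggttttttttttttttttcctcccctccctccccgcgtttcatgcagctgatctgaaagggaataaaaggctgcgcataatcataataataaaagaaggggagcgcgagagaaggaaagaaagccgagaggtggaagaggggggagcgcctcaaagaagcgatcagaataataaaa

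Among the 7 windows, the core was found in Hey2 alone, in 2 places that do not overlap, and 25.6% of the 32851 promoter windows of the table hold it. One match starts 3 bases before the Hey2 start site on the coding strand, and the other starts 207 bases before it and reads on the opposite strand. Both Hey2 matches also fit the longer motif CGTGGGAA (TTCCCACG on the other strand), which 0.734% of the windows hold. A match of letters is a description and not a binding site, and the windows without a match say nothing about RBPJ at those genes.

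Relative to cortex, both aSMC groups had more Notch2, Notch3, Jag1, Hes1 and Heyl RNA, and the astrocytes had more Notch2, Hes1, Hey1 and Hey2 but less Notch3, Notch4, Dll4 and Heyl. These calls were not equally stable. In Ai47 aSMCs they held under 21 of 21 alternative settings. In Ai14 aSMCs, Notch3 and Heyl held under 16 of 16, Jag1 under 10, and Notch2 and Hes1 under 6. In astrocytes, Notch2 held under 6 of 18, Hes1 under 10, Hey1 under 15 and the rest under 17. In Ai47 aSMCs against cortex, 5 of the 10 genes were higher and 1 was lower at an adjusted p under 0.05 (edgeR's quasi-likelihood test, Benjamini-Hochberg), where 33.6% of the 11548 genes tested were higher and 25% lower (58.6% in all). The libraries of these groups did not overlap for 5 of the 10 genes, and for 43.7% of all genes. In Ai14 aSMCs against cortex, 6 of 10 were higher and 0 lower, where 3.97% of 14927 genes tested were higher and 2% lower (5.97% in all), and the groups did not overlap for 7 of the 10 genes and 36.7% of all genes.

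In astrocytes against cortex, 4 were higher and 4 were lower, where 14.6% of genes were higher and 19.8% lower (34.5% in all), with no overlap for 5 of the 10 genes and 25.1% of all genes. In Ai14 aSMCs against astrocytes, 5 were higher and 0 lower, where 13.6% of genes were higher and 3.56% lower (17.1% in all), with no overlap for 9 of 10 and 48% of all genes. In Ai47 aSMCs against astrocytes, 5 were higher and 2 lower, where 26.1% of genes were higher and 23.8% lower (49.9% in all), with no overlap for 7 of 10 and 38.2% of all genes. Between Ai47 and Ai14 aSMCs, 2 were higher and 3 lower in Ai47, where 9.55% of genes were higher and 16% lower (25.6% in all), with no overlap for 7 of 10 and 52.2% of all genes. In Ai47 aSMCs against cortex the share of members called was thus near that of all genes, and the calls are given below as values of single genes and not as a property of the pathway. The median log2 fold change of the 10 genes was 1.93 in Ai47 aSMCs against cortex (0.32 over all genes tested), 3.14 in Ai14 aSMCs against cortex (0.32 over all genes) and -0.72 in astrocytes against cortex (-0.08 over all genes). These comparisons share their cortex libraries and are not independent of each other.

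**Figure D1:**
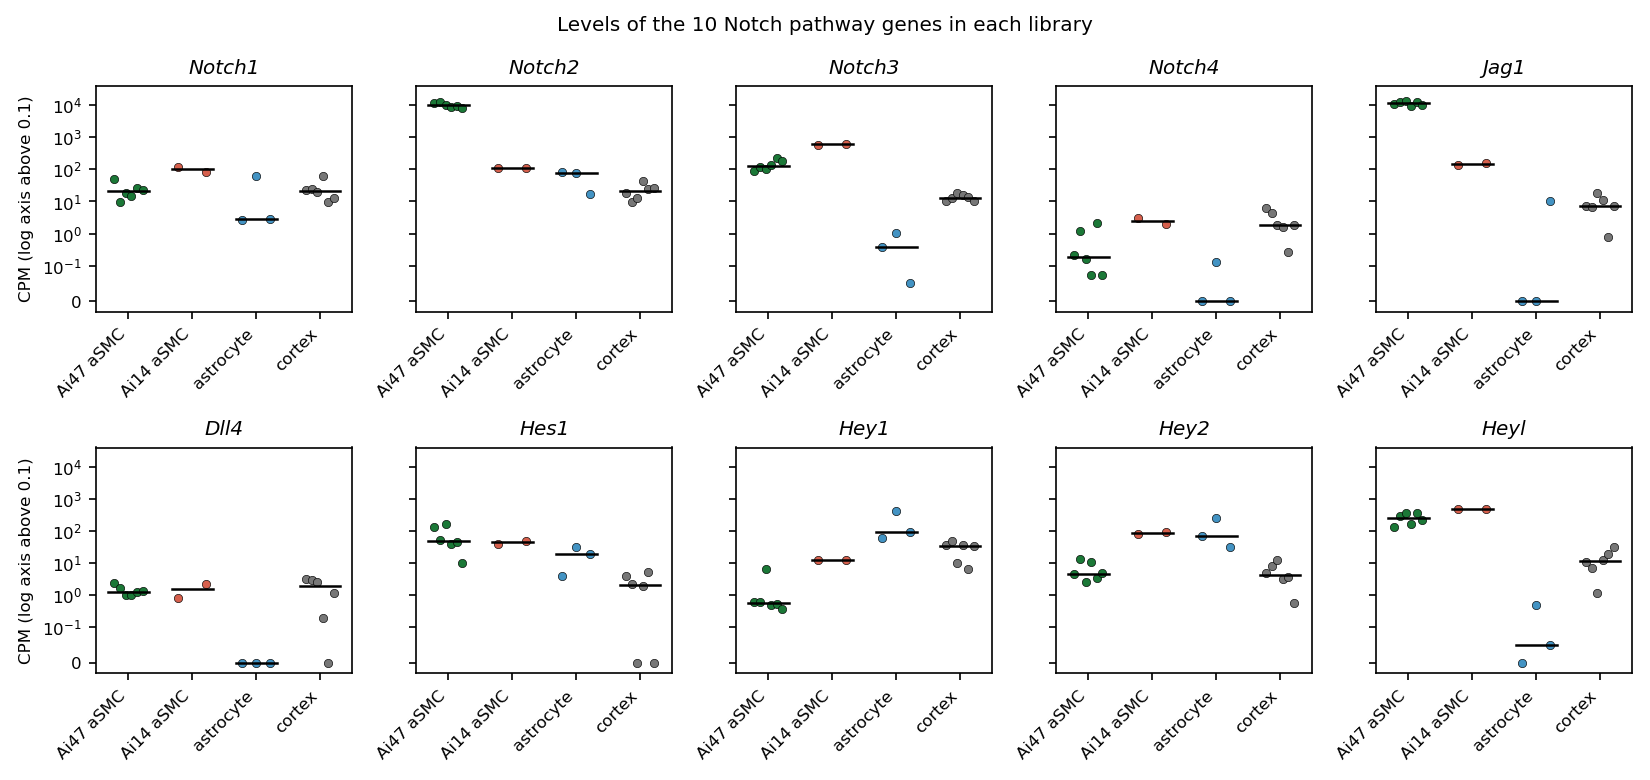
Level of each of the 10 genes in every library (points, CPM after TMM, log axis above 0.1 and linear below it), with the group median as a line. Notch2 and Jag1 stand at 8322 CPM or more in all 6 Ai47 aSMC libraries and at or below 161 CPM in every other library, and Dll4 is at 0 in the 3 astrocyte libraries.

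Notch3 (chromosome 17, 32120820 to 32166852, minus strand; GENCODE M21 on GRCm38, as for the other genes) was the receptor with the most RNA in Ai14 aSMCs. It had 86.3, 126 and 235 CPM as the lowest, median and highest level in Ai47 aSMCs and 592 and 622 CPM in Ai14 aSMCs, against 0.375, 1.01 and 0.0505 CPM in the 3 astrocyte libraries and 10.4, 13.1 and 18.6 CPM as the lowest, median and highest level in cortex. The 4 groups did not overlap, with Ai14 aSMCs highest, then Ai47 aSMCs, cortex and astrocytes. Its log2 fold change against cortex was 3.47 ± 0.34 (SE; adjusted p = 1.9e-07) in Ai47 aSMCs, 5.49 ± 0.60 (adjusted p = 7.04e-06) in Ai14 aSMCs and -4.92 ± 0.75 (adjusted p = 9.3e-05) in astrocytes. The astrocyte level rested on 13 counts over 3 libraries, and replicate 2 held 8 of them. Notch3 was lower in Ai47 than in Ai14 aSMCs by a log2 fold change of -2.07 ± 0.58 (adjusted p = 0.0127), but that call was lost without any 1 of 7 libraries (adjusted p 0.0681 to 0.235), the exception being Ai47 aSMC replicate 5. The smooth muscle and pericyte marker sums given above were higher in both Ai14 aSMC libraries than in every Ai47 aSMC library, and their part in this difference was not tested.

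Notch2 (chromosome 3, 98013527 to 98150361, plus strand), another receptor found in vascular smooth muscle, was the receptor with the most RNA in Ai47 aSMCs and in astrocytes. It had 8322, 10119 and 12750.0 CPM as the lowest, median and highest level in Ai47 aSMCs and 108 and 113 CPM in Ai14 aSMCs, against 85.6, 75.7 and 16.7 CPM in astrocytes and 9.87, 21.6 and 45.1 CPM as the lowest, median and highest level in cortex. Every Ai47 aSMC library stood far above every other library, both Ai14 aSMC libraries stood above all astrocyte and cortex libraries, and astrocyte replicate 3 lay within the cortex range. The log2 fold change against cortex was 8.87 ± 0.50 (adjusted p = 3.37e-10) in Ai47 aSMCs, 2.27 ± 0.50 (adjusted p = 0.00782) in Ai14 aSMCs and 1.36 ± 0.46 (adjusted p = 0.0266) in astrocytes. Between the reporter lines, Notch2 was higher in Ai47 than in Ai14 aSMCs by a log2 fold change of 6.54 ± 0.82 (adjusted p = 1.09e-05), and it was called in that comparison under all 15 alternatives. The Ai14 aSMC call was lost without any 1 of 7 libraries (adjusted p 0.0511 to 0.278), the exception being cortex replicate 4. The astrocyte call was lost without any 1 of 7 libraries (adjusted p 0.0738 to 0.213), the exceptions being cortex replicate 4 and astrocyte replicate 3. Ai14 aSMCs and astrocytes did not differ at the threshold (log2 fold change 0.90 ± 0.60, adjusted p = 0.312).

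Notch1 (chromosome 2, 26457903 to 26516663, minus strand), the most widely expressed Notch receptor, had no call in the main fit of any of the 6 comparisons. It had 9.63, 21 and 50.7 CPM as the lowest, median and highest level in Ai47 aSMCs and 116 and 83.3 CPM in Ai14 aSMCs, against 2.62, 60.4 and 2.93 CPM in astrocytes and 9.56, 21.3 and 63.3 CPM as the lowest, median and highest level in cortex. Both Ai14 aSMC libraries stood above all others, Ai47 aSMCs and cortex overlapped throughout, and astrocyte replicate 2 stood far above the other astrocyte libraries. The log2 fold change against cortex was 0.02 ± 0.54 (adjusted p = 0.982) in Ai47 aSMCs, 1.96 ± 0.91 (adjusted p = 0.231) in Ai14 aSMCs and -0.22 ± 0.86 (adjusted p = 0.87) in astrocytes. In Ai14 aSMCs against cortex Notch1 passed under 1 of 15 alternatives, the 2 groups alone in edgeR (1.65, adjusted p = 0.0444). Ai47 against Ai14 aSMCs gave -2.06 (adjusted p = 0.102) and passed under 2 of 14. These were the 2 groups alone (-1.92, adjusted p = 0.0208) and library totals alone (-4.28, adjusted p = 0.000731). Astrocyte replicate 2 decided the comparisons with astrocytes: without it, Notch1 was lower in astrocytes than in cortex (log2 fold change -3.38, adjusted p = 0.0101), and higher than in astrocytes both in Ai14 aSMCs (5.07, adjusted p = 0.00326) and in Ai47 aSMCs (3.44, adjusted p = 0.0048).

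Notch4 (chromosome 17, 34564268 to 34588503, plus strand), an endothelial receptor, was low in every group. It had 0.0728, 0.186 and 2.06 CPM as the lowest, median and highest level in Ai47 aSMCs and 3.07 and 2.03 CPM in Ai14 aSMCs, against 0, 0.127 and 0 CPM in astrocytes and 0.258, 1.88 and 6.16 CPM as the lowest, median and highest level in cortex. The aSMC and cortex values overlapped, and the astrocyte value rested on 1 count. The ratio of astrocytes to cortex was 0.00794 (exact 95% interval 0.0002 to 0.045 from 1 and 143 counts, covering counting error only; adjusted p = 0.0162), and Ai14 aSMCs exceeded astrocytes by a ratio of 97.9 (17.3 to 3888; adjusted p = 0.0393), a call that held under 4 of 12 alternatives. Against cortex, Notch4 did not pass in Ai47 aSMCs (log2 fold change -1.96 ± 0.92, adjusted p = 0.0792), though it did without Ai47 aSMC replicate 5 (-2.81, adjusted p = 0.0173), nor in Ai14 aSMCs (-0.09 ± 1.44, adjusted p = 0.99). Endothelial markers moved with Notch4 and Dll4 in astrocytes, where 11 of 12 were lower than in cortex (median log2 fold change -7.55) and the exception, the glucose transporter Slc2a1, carried most of their sum of 516 to 1257 CPM. They summed to 327 to 563 CPM in Ai47 aSMCs, where 9 of 12 were lower than in cortex and Esam and Cldn5 higher, to 359 and 415 CPM in Ai14 aSMCs and to 477 to 1442 CPM in cortex. Their part in the Notch4 and Dll4 values was not tested.

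The make-up of the receptor RNA differed between the reporter lines. Of all counts on the 4 receptors, Notch2 held 97.4% to 99.0% in Ai47 aSMC libraries and 13.2% and 13.8% in Ai14 aSMC libraries, while Notch3 held 0.715% to 2.35% in Ai47 and 72.3% and 75.8% in Ai14. In astrocytes Notch2 held 55.2% to 96.6% of receptor counts and Notch3 0.257% to 0.739%, and in cortex Notch1, Notch2 and Notch3 each held between 12.3% and 52.1%. Per kilobase of exon, the ratio of Notch2 to Notch3 was 31.1 to 104 in Ai47 aSMCs and 0.137 in both Ai14 aSMC libraries, against 56.0 to 248 in astrocytes and 0.534 to 2.19 in cortex. Ratios within a library do not depend on the scaling between libraries. Reporter line, depth and every other difference between these 2 sets of libraries cannot be told apart.

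**Figure D2:**
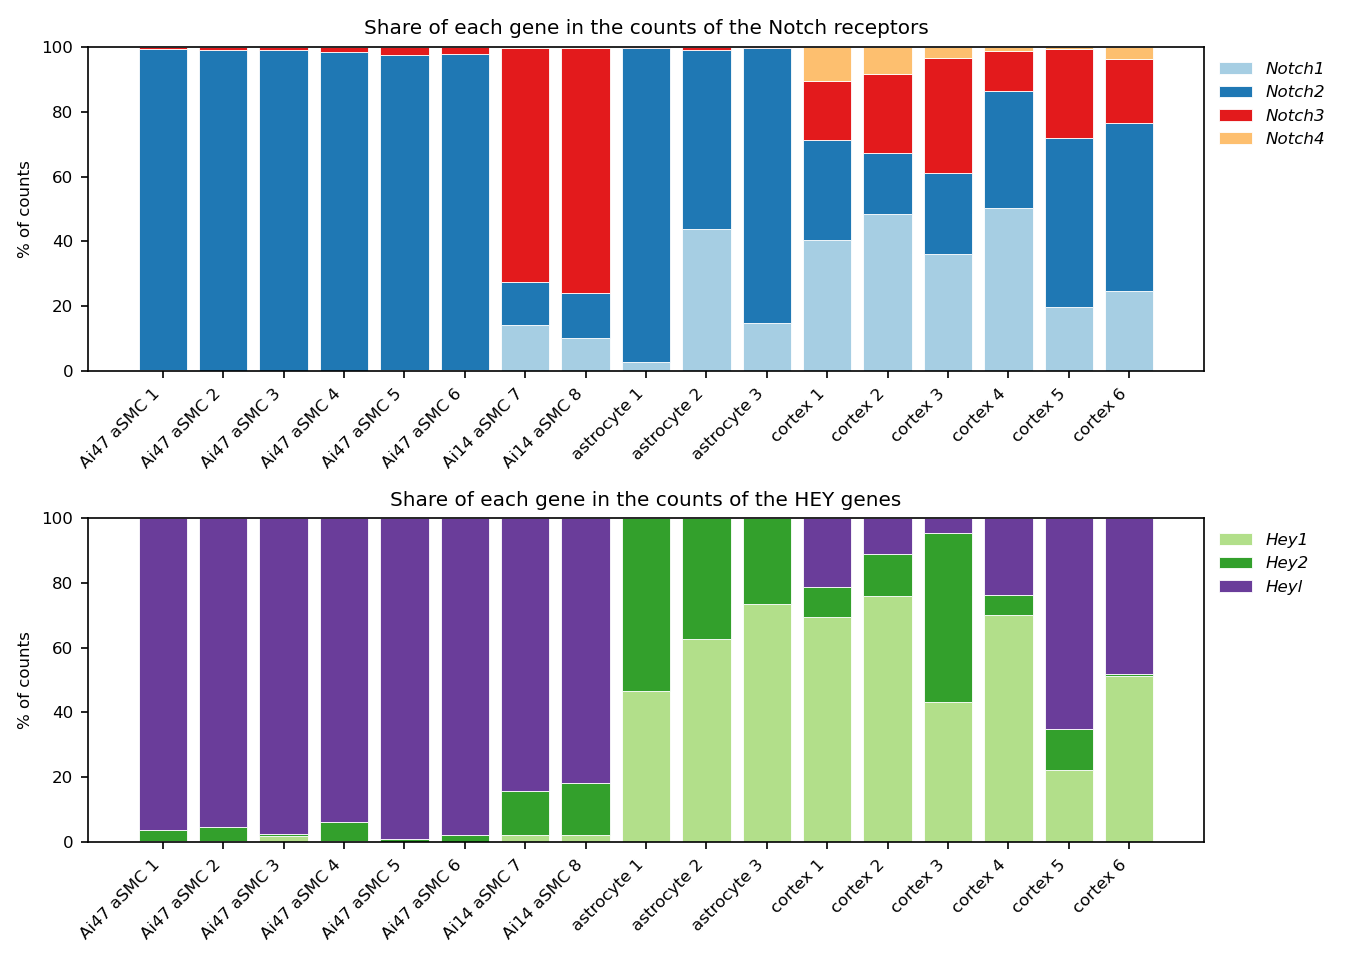
Share of each gene in the counts of its family within each library (percent), for the 4 Notch receptors and the 3 HEY genes. Notch2 takes 97.4% to 99.0% of receptor counts in Ai47 aSMCs and Notch3 72.3% and 75.8% in Ai14 aSMCs, while Heyl leads the HEY genes in both.

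Jag1 (chromosome 2, 137081456 to 137116644, minus strand), the ligand, was high in Ai47 aSMCs together with Notch2. It had 9795, 11954 and 13474 CPM as the lowest, median and highest level in Ai47 aSMCs and 133 and 161 CPM in Ai14 aSMCs, against 0, 0 and 10.7 CPM in astrocytes and 0.775, 7.30 and 17.8 CPM as the lowest, median and highest level in cortex. Both aSMC groups stood apart from each other and above every astrocyte and cortex library. The log2 fold change against cortex was 10.54 ± 0.60 (adjusted p = 4.12e-10) in Ai47 aSMCs, 4.11 ± 0.99 (adjusted p = 0.0145) in Ai14 aSMCs and -1.22 ± 1.0 (adjusted p = 0.36) in astrocytes. Astrocyte replicates 1 and 2 had 0 counts, and without replicate 3 Jag1 was called lower in astrocytes than in cortex (adjusted p = 4.86e-05). Jag1 was higher in Ai47 than in Ai14 aSMCs (6.32 ± 1.60, adjusted p = 0.00638), a call lost without Ai14 aSMC replicate 7 (adjusted p = 0.085) or 8 (adjusted p = 0.0714). The Ai14 aSMC call against cortex was lost without either Ai14 aSMC library (adjusted p 0.107 and 0.171), cortex replicate 1 (0.0506) or cortex replicate 2 (0.0525).

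Notch2 and Jag1 together held 0.991% to 1.11% of all counts in Ai47 aSMC libraries and 0.0533% and 0.0604% in Ai14 aSMC libraries. Their raw counts were also alike between Ai47 aSMC columns: the highest count of Notch2 was 1.15 times the lowest, and 5.0% of the 4041 genes with at least 100 counts in all 6 columns had a smaller ratio, where the median ratio was 2.29. The same ratio was 1.58 for Jag1 and 3.53 for Notch3. Whether the likeness of these columns bears on the Notch2 and Jag1 levels was not tested.

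Some markers of other cell types were also high in Ai47 aSMCs. The 6 fibroblast markers summed to 1531 to 2365 CPM in Ai47 aSMCs and 79.8 and 123 CPM in Ai14 aSMCs, against 0.960 to 7.58 CPM in astrocytes and 14.6 to 38.3 CPM in cortex. Only 3 of the 6 reached 1 CPM in Ai47 aSMCs, where Col1a1, a collagen gene, made up most of the sum (mean 1739 CPM) and Pdgfra, a defining fibroblast marker, had 0 counts. Of the 10 astrocyte markers, 6 reached 1 CPM in Ai47 aSMCs, and Gja1 (1093 CPM) and Sox9 (342 CPM) were higher there than in cortex (58.0 and 32.5 CPM), while 7 were lower, with Gfap at 0.057 CPM. The astrocyte list summed to 1186 to 1893 CPM in Ai47 aSMCs and 186 and 262 CPM in Ai14 aSMCs. Oligodendrocyte markers went the other way, summing to 0.546 to 1.05 CPM in Ai47 aSMCs and 163 and 239 CPM in Ai14 aSMCs. Their sum was 3570 to 11672 CPM in cortex. Between Ai47 and Ai14 aSMCs, 4 of 8 oligodendrocyte, 6 of 8 microglia and macrophage and 4 of 10 neuron markers were lower in Ai47. Of these 3 lists, 0 markers were higher there, where 9.55% of all genes were higher and 16% lower. The part of the markers of other cell types in the Notch2 and Jag1 levels was not tested.

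Dll4 (chromosome 2, 119325784 to 119335962, plus strand), a Delta-like ligand of arterial endothelium, was low wherever it was found. It had 0.995, 1.26 and 2.36 CPM as the lowest, median and highest level in Ai47 aSMCs and 0.791 and 2.27 CPM in Ai14 aSMCs, against 0 CPM in all 3 astrocyte libraries and 0, 1.88 and 3.08 CPM as the lowest, median and highest level in cortex. The aSMC and cortex values overlapped. With a floor of 3 counts over the group, Dll4 was at least 21.1-fold lower in astrocytes than in cortex (adjusted p = 0.00501), at least 19.6-fold higher in Ai14 aSMCs than in astrocytes (adjusted p = 0.0133) and at least 18.2-fold higher in Ai47 aSMCs than in astrocytes (adjusted p = 0.00336). The Ai14 aSMC call against astrocytes was lost without Ai14 aSMC replicate 8 (adjusted p = 0.075). The Ai47 aSMC call against astrocytes held under 15 of 17 alternatives and was lost with the replicate block in edgeR (adjusted p = 0.0758). So was the call of astrocytes against cortex (adjusted p = 0.112). Against cortex the log2 fold change was -0.05 ± 0.76 (adjusted p = 0.964) in Ai47 aSMCs and -0.13 ± 1.32 (adjusted p = 0.983) in Ai14 aSMCs.

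Heyl (chromosome 4, 123233556 to 123249875, plus strand), a HEY repressor known as a Notch3 target in smooth muscle, led the HEY genes in both aSMC groups. It had 131, 250.4 and 357 CPM as the lowest, median and highest level in Ai47 aSMCs and 500.3 and 478 CPM in Ai14 aSMCs, against 0, 0.507 and 0.0505 CPM in astrocytes and 1.12, 11.5 and 31.9 CPM as the lowest, median and highest level in cortex. No group overlapped another. Against cortex, the log2 fold change was 4.25 ± 0.61 (adjusted p = 1.64e-05) in Ai47 aSMCs, 5.17 ± 0.79 (adjusted p = 0.000283) in Ai14 aSMCs and -6.39 ± 1.11 (adjusted p = 0.000273) in astrocytes, and the difference between Ai47 and Ai14 aSMCs did not pass (-0.96, adjusted p = 0.414). Heyl held 93.7% to 98.9% of HEY counts in Ai47 aSMCs and 81.6% and 84.1% in Ai14 aSMCs, against 0% to 0.0743% in astrocytes and 4.69% to 65.2% in cortex.

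Hey1 (chromosome 3, 8663359 to 8667256, minus strand), a HEY repressor of arterial endothelium and of other tissues, was highest in astrocytes. It had 0.364, 0.576 and 6.69 CPM as the lowest, median and highest level in Ai47 aSMCs and 12.6 and 12.8 CPM in Ai14 aSMCs, against 58.8, 429 and 90.5 CPM in astrocytes and 6.46, 34.7 and 47.4 CPM as the lowest, median and highest level in cortex. All 3 astrocyte libraries stood above every other library, and the Ai14 aSMC values lay inside the cortex range. The log2 fold change against cortex was -4.02 ± 0.87 (adjusted p = 0.000794) in Ai47 aSMCs, -1.16 ± 1.13 (adjusted p = 0.639) in Ai14 aSMCs and 2.77 ± 0.88 (adjusted p = 0.0198) in astrocytes. The astrocyte call was lost without astrocyte replicate 2 (log2 fold change 1.27, adjusted p = 0.325). Hey1 was lower in Ai47 than in Ai14 aSMCs (-3.02 ± 0.95, adjusted p = 0.0242), a call that held under 2 of 15 alternatives and was lost without any 1 library other than Ai47 aSMC replicate 3 (adjusted p 0.106 to 0.21).

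Hey2 (chromosome 10, 30832359 to 30842801, minus strand), the HEY repressor whose promoter window above holds 2 RBPJ cores, was high in Ai14 aSMCs and astrocytes. It had 2.64, 4.65 and 13.3 CPM as the lowest, median and highest level in Ai47 aSMCs and 81.9 and 94.9 CPM in Ai14 aSMCs, against 67.0, 254 and 32.6 CPM in astrocytes and 0.567, 4.20 and 12.5 CPM as the lowest, median and highest level in cortex. Ai47 aSMCs and cortex overlapped, and every Ai14 aSMC and astrocyte library stood above both. Against cortex, the log2 fold change was 0.39 ± 0.68 (adjusted p = 0.646) in Ai47 aSMCs, 4.01 ± 0.83 (adjusted p = 0.00494) in Ai14 aSMCs and 4.42 ± 0.79 (adjusted p = 0.000365) in astrocytes. Hey2 was lower in Ai47 than in Ai14 aSMCs (-3.75 ± 0.83, adjusted p = 0.00246), a call lost without Ai14 aSMC replicate 8 (adjusted p = 0.0503). The Ai14 aSMC call against cortex was lost without either Ai14 aSMC library (adjusted p 0.0534 and 0.0901).

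Hes1 (chromosome 16, 30064384 to 30067796, plus strand), the HES repressor that also answers to other pathways, was higher than cortex in all 3 sorted groups. It had 9.90, 49.1 and 166 CPM as the lowest, median and highest level in Ai47 aSMCs and 40.4 and 48.8 CPM in Ai14 aSMCs, against 3.93, 30.8 and 18.6 CPM in astrocytes and 0, 2.06 and 5.42 CPM as the lowest, median and highest level in cortex. The aSMC libraries stood above every cortex library, and astrocyte replicate 1 lay within the cortex range. The log2 fold change against cortex was 5.19 ± 1.01 (adjusted p = 0.000305) in Ai47 aSMCs, 4.31 ± 1.10 (adjusted p = 0.0218) in Ai14 aSMCs and 2.99 ± 1.01 (adjusted p = 0.0279) in astrocytes. The Ai14 aSMC call was lost without Ai14 aSMC replicate 7 or 8 or cortex replicate 1, 2, 4 or 6 (adjusted p 0.0517 to 0.226), and the astrocyte call without astrocyte replicate 2 or cortex replicate 2, 3 or 4 (adjusted p 0.0522 to 0.13). Immediate early genes, which cell dissociation is known to raise, summed to 2786 to 4103 CPM in Ai47 aSMCs, 2998 and 4430 CPM in Ai14 aSMCs and 40.9 to 679 CPM in astrocytes, against 103 to 320 CPM in cortex, and their part in the Hes1 values was not tested.

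**Figure D3:**
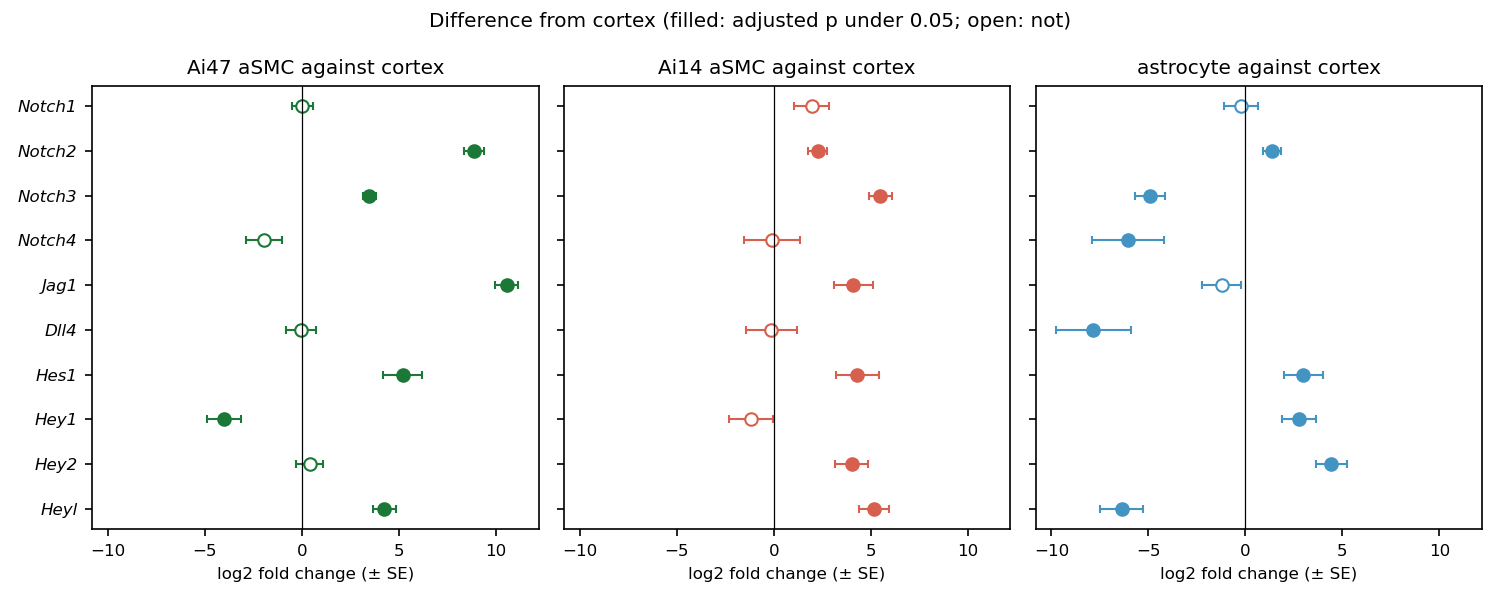
Log2 fold change of each gene against cortex in Ai47 aSMCs, Ai14 aSMCs and astrocytes (points, error bars are the standard error, filled where the adjusted p was under 0.05). Notch3 and Heyl lie above 0 in both aSMC groups and below 0 in astrocytes against cortex, and the fitted values of Dll4 (0 counts) and Notch4 (1 count) in astrocytes depend on the prior count and are no bounds.

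Per kilobase of exon, a scale on which genes can be compared, the group means gave Jag1 (2020.0 CPM per kb) and Notch2 (955) as the highest members in Ai47 aSMCs, then Heyl (49.3) and Hes1 (36.4). Over the Ai47 aSMC libraries Hes1 spanned 4.86 to 81.4 CPM per kb and Heyl 25.6 to 69.8. The order of Heyl and Hes1 thus differed between libraries. In Ai14 aSMCs the highest were Heyl (95.7 CPM per kb) and Notch3 (75.1), then Jag1 (25.2). In astrocytes they were Hey1 (59.0 CPM per kb) and Hey2 (25.7), and in cortex no member but Hey1 (8.67) passed 3 CPM per kb. Without astrocyte replicate 2, the astrocyte means of Hey1 and Hey2 were 2.58 and 2.36 times lower. In the annotation, Notch3 overlaps Gm17276, Notch1 overlaps 0610009E02Rik and Gm13568, Notch4 overlaps Gm20462 and Dll4 overlaps Gm14207, all on the opposite strand, and no source used here states whether counting used strand. Notch2 overlaps Gm42819 and Gm42820 and Notch1 overlaps Mir6996 on the same strand. Reads from these overlaps may not be told apart.

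Beyond the 10 genes, 46 further genes of the pathway were listed (other ligands, receptor proteases, glycosyltransferases, ligand endocytosis, the nuclear complex, turnover, and other HES-like genes). In Ai47 aSMCs against cortex, 35 could be tested, of which 8 were higher and 7 lower, 15 in all, a smaller share than the 58.6% of all genes called (33.6% higher, 25% lower). The largest was Maml2, a Mastermind coactivator, with 4022, 5244 and 7110 CPM as the lowest, median and highest level in Ai47 aSMCs, against 12.7, 24.1 and 40.4 CPM in cortex (log2 fold change 7.84, adjusted p = 1.93e-10). Bhlhe41, a HES-like repressor of the clock, followed at 7.05 (adjusted p = 1.22e-09), with Bhlhe40 at 4.39. As with Notch2, raw counts of Maml2 were alike between Ai47 aSMC columns, the highest being 1.19 times the lowest. Whether this bears on the Maml2 level was not tested.

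Of the 9 genes of receptor cleavage, 4 were higher in Ai47 aSMCs and 0 lower, where 33.6% of all genes were higher, so the count is near the background: the gamma-secretase subunit Psen2 (log2 fold change 6.45), the shedding proteases Adam10 (5.14) and Adam17 (1.92), and Furin (3.76), which cuts the receptor during its maturation. The highest raw count over the 6 Ai47 aSMC columns was 1.12 times the lowest for Adam10 and 1.36 times for Furin. It was 4.67 times for Adam17 and 6.33 times for Psen2, and the median given above was 2.29. The ubiquitin ligase subunit Fbxw7, which marks cleaved Notch for breakdown, was higher by 1.14. Among the lower genes were the ligand-like Dner (-3.32), the fringe gene Rfng (-3.82), the ligases Mib1 (-0.71), Itch (-1.72) and Dtx1 (-4.82), and the corepressor Spen (-4.19). Dner had the same raw count, 15, in all 6 Ai47 aSMC columns, so its raw counts had no spread in that group. Rbpj itself did not pass in Ai47 aSMCs (1.09, adjusted p = 0.162).

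In Ai14 aSMCs against cortex, 0 of 40 tested genes of these lists passed, where 5.97% of all genes did (edgeR; 7 of the 40 had an unadjusted p under 0.05), and Rbpj had a log2 fold change of 1.49 (adjusted p = 0.387). In astrocytes against cortex, 6 of 40 were higher, among them Rbpj (2.73, adjusted p = 0.0144) and Lfng, the fringe gene that changes which ligands a receptor answers to (4.29, adjusted p = 0.00494), and 13 were lower, among them Fbxw7 (-3.79, adjusted p = 0.0119) and Mib1 (-1.88), where 34.5% of all genes were called. The astrocyte libraries were spread widely for these genes. As lowest, median and highest level they had 32.3, 37.6 and 255 CPM of Rbpj, 0, 0.507 and 10.7 CPM of Fbxw7, and 4.06, 37.6 and 111 CPM of Mib1. Ai14 aSMCs against astrocytes gave 8 higher and 1 lower of 40 (17.1% of all genes called), and Ai47 aSMCs against astrocytes 15 higher and 7 lower of 40 (49.9% of all genes called). Between Ai47 and Ai14 aSMCs, Maml2, Bhlhe41, Adam10 and Psen2 were higher in Ai47, and Lfng, Rfng, Spen and Itch were among those lower, 4 and 5 of 40 (25.6% of all genes called). Called in opposite directions in different comparisons were 10 genes lower in astrocytes than in cortex and higher in aSMCs of at least 1 line than in astrocytes (among them Jag2, Aph1a, Mfng, Rfng, Neurl1a, Neurl1b, Maml3, Fbxw7 and Nrarp), and 4 genes with the reverse pattern (among them Aph1b, Psenen and Lfng). The opposite signs come from the order of the groups: both calls place the 10 genes low, and the 4 genes high, in astrocytes. These comparisons share their astrocyte libraries, and Rfng, Mfng and Neurl1b had 0 counts there.

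**Figure D4:**
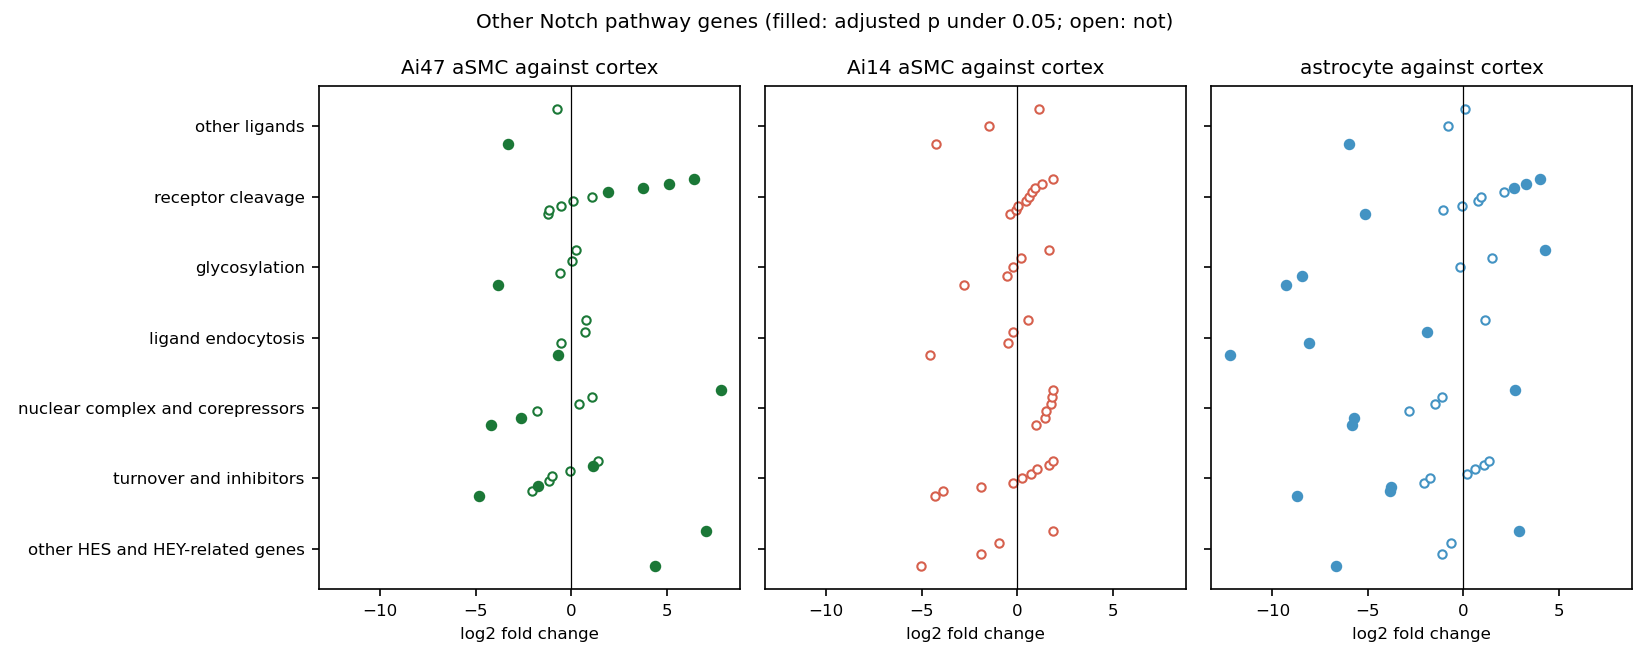
Log2 fold change against cortex of the further pathway genes in each sorted group, grouped by role, 1 point a gene (filled where the adjusted p was under 0.05). Maml2 (7.84) and Bhlhe41 (7.05) are highest in Ai47 aSMCs, and no gene is filled in Ai14 aSMCs.

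Across the 17 libraries, the genes whose log2 CPM was most like that of Notch3 (Pearson r over 13901 genes compared, a description that includes differences between groups and in depth) were Mylk, the smooth muscle myosin light chain kinase (r = 0.98), Rgs5, a mural cell gene (0.97), and Itga1, an integrin (0.97), and among the members Heyl (0.95). For Notch2 they were Nup98, Tgoln1 and Mtdh (each 0.99), with Jag1 at 0.90. Notch1 was most like Lamc1 (0.87), Igfbp7 (0.87) and Pakap (0.84), and Notch4 most like Fbln5 (0.92), Frs3 (0.91) and Raver2 (0.89).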

How the data were processed

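Bulk RNA-seq was measured in 17 libraries: 6 Ai47 aSMC, 2 Ai14 aSMC, 3 astrocyte and 6 cortex. The authors deposited a matrix of raw counts per gene, whole numbers without normalization. The labels name Salmon 1.4.0, Trim Galore 0.6.7, FastQC 0.11.9, MultiQC 1.13, GRCm38 and a NuGEN kit, while the study's text names a TruSeq kit, TopHat and htseq-count, so the counter is uncertain. Total counts ranged between 4537137 and 53643624, and low counts limit Notch4 and Dll4 most.

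Groups came from the labels. Counts were tested with edgeR 4.0.16 (limma 3.58.1, R 4.3.3): filterByExpr with a minimum count of 10, TMM scaling, the quasi-likelihood test and Benjamini-Hochberg adjustment over all genes tested, with an adjusted p under 0.05 as threshold. Ai47 aSMCs against cortex was fitted on those 12 libraries (11548 genes) and the other 5 comparisons in a fit of all 17 (14927 genes). All 10 genes passed the filter in both. Gene positions and exon lengths came from GENCODE M21. The fit was tested on simulated counts in which few genes changed and all libraries otherwise shared the same mean profile. That check cannot show how the fit or the scaling does on groups as unlike as these. Alternatives were DESeq2 1.42.0, other scalings, no filter, each library left out, a replicate block, the Ai47 aSMC columns averaged, the 2 groups alone and, added after seeing the data, cortex replicates 4 to 6 left out. Members and gene lists were chosen with earlier results of these data known. Besides the members and Rbpj, the rule named up to 4 genes of each pathway list with the largest change among those called in Ai47 aSMCs against cortex, genes called in opposite directions in 2 comparisons, and the 3 genes most like each receptor. Some genes that the rule names are not reported here. Likeness was Pearson's r of log2(CPM + 0.5) over 17 libraries. Tables used Python 3.11.15 and plots matplotlib 3.10.9.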

Additional observations from a re-analysis of the deposited data

Results flagged for a closer look

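A pair of single libraries stood apart in their groups by Dixon's test, among 20 gene and group combinations tested, where chance gives about 1 in 20. Notch1 in cortex replicate 4 was 63.3 CPM, against a cortex median of 21.3 CPM. Hey1 in Ai47 aSMC replicate 3 was 6.69 CPM, and the Ai47 aSMC mean was 0.525 CPM without it. 

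The change relative to cortex differed between the reporter lines for 5 genes, by the edgeR test of Ai47 against Ai14 aSMCs, which is the difference of their contrasts with the shared cortex. The log2 difference, Ai47 minus Ai14, was 6.54 for Notch2, 6.32 for Jag1, -2.07 for Notch3, -3.02 for Hey1 and -3.75 for Hey2. The groups did not overlap for any of the 5 genes. In this comparison, the same as reported above, 25.6% of all genes were called and 52.2% did not overlap. The calls of Notch3 and Hey1 held under 5 and 2 of 15 alternatives. Depth and mitochondrial share differ with the reporter line, and their part was not tested.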

How the results depend on the processing

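Of the member fold changes, 386 of 473 kept direction and side of the threshold under alternatives other than leaving out 1 library (50 lost and 13 gained the call, 24 turned), and 417 of 504 when 1 library was left out. The counts of called members were 6, 6, 8, 5, 7 and 5 in the order given in the report. In Ai14 aSMCs against cortex the count fell to 3 with the Ai47 aSMC columns averaged and to 3 without cortex replicates 4 to 6, an alternative chosen after seeing the data. In Ai14 aSMCs against astrocytes it was 0 with the samples of these 2 groups alone in edgeR (5 of 10 at an unadjusted p under 0.05). That fit had fewer samples and called 0 of all 12864 genes tested. In Ai47 against Ai14 aSMCs it was 3 with DESeq2 size factors, 8 with library totals alone, 3 with mitochondrial genes removed and 1 with the columns averaged. Leaving out 1 library gave 6 to 7, 2 to 5, 6 to 9, 3 to 6, 7 to 9 and 1 to 4 calls. Same-numbered libraries did not deviate together (r between -0.05 and 0.04). With the replicate block the count was 7 in Ai47 aSMCs against cortex, 0 in astrocytes against cortex (6 of 10 at an unadjusted p under 0.05) and 5 in Ai47 aSMCs against astrocytes. The share of all genes called with the replicate block was 57.9%, 9.87% and 19.9% in the same order. In Ai47 against Ai14 aSMCs it was 23.7% with DESeq2 size factors, 47.8% with library totals alone and 22.4% with mitochondrial genes removed. The main fit there gave 25.6%. Without cortex replicates 4 to 6 it was 2.44% in Ai14 aSMCs against cortex, where the main fit gave 5.97%. With the samples of these 2 groups alone in edgeR it was 18.2% there. The causes of these changes in member counts and shares were not tested.

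Direction turned, without a call unless stated, in these cases. In Ai47 aSMCs against cortex, Dll4 was 0.066 with DESeq2 size factors, 0.081 with mitochondrial genes removed, 0.17 unfiltered, 0.10 in DESeq2 and 0.44 with the replicate block; Notch1 was -1.44 with library totals (adjusted p = 0.0442), -0.20 with averaged columns and -0.10 in the fit of all 17; Hey2 was -1.18 with library totals and -0.15 without cortex replicates 4 to 6. With library totals, Ai14 aSMCs against cortex gave 0.53 for Notch4 and 0.49 for Dll4, and Notch1 in astrocytes against cortex was 0.22 (0.14 with DESeq2 size factors). In Ai47 aSMCs against astrocytes, Notch1 was -0.31 with DESeq2 size factors and -1.65 with library totals, and Hes1 -0.062 with library totals. In Ai47 against Ai14 aSMCs, Dll4 was 0.32 with DESeq2 size factors, 0.42 with mitochondrial genes removed, 0.26 unfiltered, 0.32 in DESeq2, 0.072 with averaged columns and 0.0057 with the 2 groups alone, and Hes1 -1.54 with library totals. Leaving out 1 library spanned -0.44 to 0.67 for Notch1 and -0.20 to 0.25 for Dll4 (Ai47 aSMCs against cortex), -1.25 to 0.32 for Dll4 and -0.54 to 0.12 for Notch4 (Ai14 aSMCs against cortex), -3.38 to 0.30 for Notch1 (astrocytes against cortex), -1.05 to 0.75 for Hey2 (Ai14 aSMCs against astrocytes), -0.20 to 3.44 for Notch1 (Ai47 aSMCs against astrocytes) and -0.30 to 1.27 for Dll4 (Ai47 against Ai14 aSMCs). Library totals alone shifted the median of all genes by -1.45 in Ai47 aSMCs against cortex (33.9% of calls higher, against 57.3%), 0.86 in Ai14 aSMCs against cortex (90.4% against 66.6%; 49.6% with DESeq2 size factors), 0.88 in astrocytes against cortex (60.8% against 42.4%), -2.11 in Ai47 aSMCs against astrocytes (22.4% against 52.3%) and -2.18 in Ai47 against Ai14 aSMCs (7.48% against 37.3%; 49.1% with mitochondrial genes removed). In Ai14 aSMCs against astrocytes, DESeq2 size factors gave 66.8% against 79.2%.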
